A study of Mus musculus with 23 samples.

Results

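The enzymes that make serine, carry one-carbon units on folate, and build, reclaim or break down nucleotides were followed as a set of 34 named genes, chosen by symbol from the 24475 genes of the deposited RNA-seq table. All 34 symbols were listed, and each matched 1 row. Most of these genes were higher in mouse T-cell acute lymphoblastic leukemia (T-ALL) than in normal thymus. In wild-type T-ALL 27 of the 34 were higher and 4 were lower, where 29.3% of all genes tested were higher and 22.3% lower. In Notch3 knockout T-ALL 23 were higher and 3 were lower, where 21.2% and 16.3% of all genes were. The 2 kinds of T-ALL were compared directly as well, and no member was called different between them.

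The samples fell into 3 groups, each measured as bulk mRNA: normal C57BL/6 thymus (6 samples), spleen with T-ALL that arose from a wild-type thymus graft (WT T-ALL, 14 samples) and spleen with T-ALL that arose from a Notch3 knockout thymus graft (Notch3 KO T-ALL, 3 samples). In both T-ALL groups a lobe of newborn thymus (B6.Ly5.1, which carries CD45.1, for the wild-type grafts) had been placed under the kidney capsule of adult BALB/c Rag2-/- Il2rg-/- hosts, which lack their own T-cell progenitors. Both T-ALL groups thus share the host genotype, the use of a thymus graft and the spleen as the tissue taken, and the thymus samples share none of these. The genotype of the graft differs between the T-ALL groups. The Notch3 allele carries a β-galactosidase gene placed in frame in its first coding exon, and each T-ALL sample was a separate leukemia. The spleens were not sorted, so that host cells were sequenced together with the leukemia, and the leukemia, the tissue, the host and the strain cannot be told apart in any comparison with thymus. In bulk RNA, fewer cells of a type and less RNA per cell cannot be told apart either.

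As background, serine made from a glycolytic intermediate by Phgdh, Psat1 and Psph gives up a carbon to tetrahydrofolate through the serine hydroxymethyltransferases, and the folate enzymes pass that carbon to the purine ring and to thymidylate. Purines are built stepwise on phosphoribosyl pyrophosphate (PRPP) up to inosine monophosphate (IMP), which is then turned into AMP or GMP, while pyrimidines are built from the Cad product to UMP and CTP. Salvage enzymes reuse bases and nucleosides instead. Developing thymocytes are known for their dependence on purine nucleoside breakdown, since loss of Ada or Pnp harms T cells, and antifolates and purine analogs have long been used against T-ALL.

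Values are given as log2(scaled RPKM + 1), where the authors scaled the RPKM of each library (reads per kilobase of transcript, relative to library size) to a common upper quartile, so that levels are per length and differences are on the log2 scale of the offset value. A gene was called at an adjusted p below 0.05 (limma, Benjamini-Hochberg adjustment over all genes tested). The table holds no read counts, so the depth of each library could not be read from it.

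Several properties of the libraries moved with the groups and are given before the results that they touch. The erythroid marker score, a mean of log2 values, ranged over 0.72 to 2.18 for thymus, 3.48 to 7.60 for WT T-ALL and 6.70 to 8.87 for Notch3 KO T-ALL. Of the 12 erythroid markers tested, 11 were higher in WT T-ALL and 12 in Notch3 KO T-ALL, and their summed scaled RPKM was 24.6 to 393 for thymus, 773 to 52100 for WT T-ALL and 31600 to 104000 for Notch3 KO T-ALL. Of 12 proliferation markers, 11 and 9 were higher, with scores of 5.09 to 5.78 for thymus, 5.84 to 6.61 for WT T-ALL and 6.29 to 6.62 for Notch3 KO T-ALL. Neutrophil markers were higher for 10 of 10 in WT T-ALL and 4 of 10 in Notch3 KO T-ALL, macrophage markers for 9 and 10 of 10, megakaryocyte markers for 6 of 6 in both, and those of stroma and endothelium for 3 of 4 tested in both, with the other 1 lower in WT T-ALL. Of 11 T-cell markers, 7 were lower in WT T-ALL and 6 in Notch3 KO T-ALL, although all groups had summed levels of at least 1540. B-cell markers were lower for 4 of 4 tested in both, and thymic epithelium markers for 1 of 2 tested in both. No marker was at 0 in every library. Notch3 itself was 2.62 to 4.29 among the thymus samples, 3.17 to 5.78 in WT T-ALL, and 3.22, 2.59 and 3.74 in the 3 samples labelled Notch3 KO (difference from WT T-ALL −1.56 ± 0.41 SE, adjusted p = 0.101). The table has 1 value per gene and the spleens held host cells, so this level does not check the knockout.

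In WT T-ALL compared with thymus, 6150 of 11919 genes tested were called (51.6%), 29.3% higher and 22.3% lower. All 34 members passed the expression filter, and their median difference was 1.02, against 0.08 for all genes tested. In Notch3 KO T-ALL compared with the same 6 thymus samples, 37.5% of 11919 genes were called (21.2% higher and 16.3% lower). The median difference of the members there was 1.13, again against 0.08. Because the thymus samples were shared, the values of the 2 comparisons are given side by side and are not independent of each other. When the libraries were rescaled without mitochondrial and hemoglobin genes, the median of all genes moved to −0.27 and −0.31 and the share of calls that were higher fell from 56.8% to 28.8% (WT T-ALL) and 56.5% to 26.0% (Notch3 KO T-ALL). On that scale 25 members were higher and 5 lower, and 16 were higher and 5 lower, with medians of 0.63 and 0.68, and no called member changed direction. The map of members by library shows the rise across the nucleotide pathways and the small number of blue rows that break it.

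**Figure D1:**
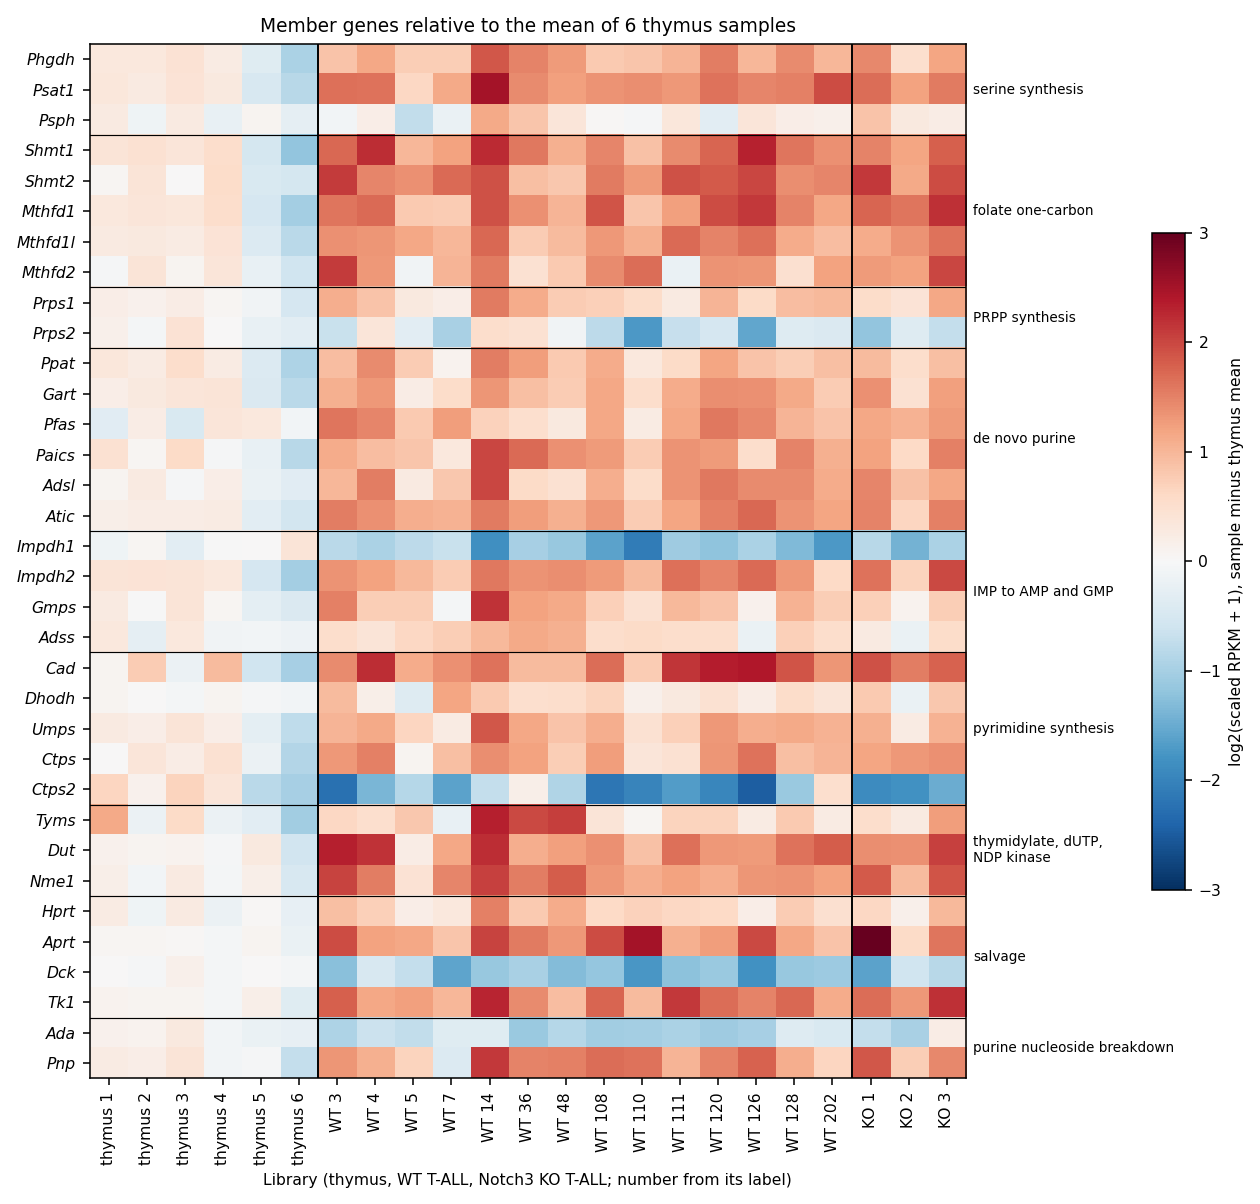
Each row is 1 of the 34 genes, grouped by role, and each column is 1 library; the color is log2(scaled RPKM + 1) minus the mean of the 6 thymus samples. Red rows fill most of the T-ALL columns, while Impdh1, Ctps2, Dck, Ada and Prps2 are blue in most of them, and thymus 6 is paler blue for most genes.

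The libraries of 1 group were not equal. Thymus 6 held the lowest of the 6 thymus values for 31 of the 34 genes, and the median of its members lay 0.56 below the thymus mean. Thymus 5 lay 0.22 below it, and the other thymus samples lay 0.14 to 0.27 above it. Among the leukemias, WT T-ALL 14 had the highest value of its group for 17 of the 34 genes and a median of 1.60 above the thymus mean, while WT T-ALL 5 was lowest for 10 genes (median 0.63) and WT T-ALL 7 for 9 (median 0.74). Notch3 KO T-ALL 2 was the lowest of its 3 for 28 of 34 genes (median 0.59), and this library also had the largest share of hemoglobin signal (15.5%). The share of mitochondrial signal was 24.18% in thymus 6, the largest among the thymus samples, and 45.89% in WT T-ALL 7, the largest of all. Thymus 6 also had the lowest proliferation score (5.09). The part of these properties in the lower values was not tested. With thymus 5 and 6 left out, 26 members were higher and 4 lower in WT T-ALL (39.2% of all genes called), and 20 higher and 3 lower in Notch3 KO T-ALL (29.3%). A second set of libraries, thymus 1 and 3 and WT T-ALL 14, 36 and 48, was left out after the data were seen. Their deviations had rank correlations of −0.18 to −0.32 with the GC content of the genes, and WT T-ALL 202, which was kept, had one of −0.21. Without these 5 libraries the counts were 27 higher and 4 lower (43.9% of all genes called), and 25 higher and 3 lower (35.8%). In the first of these Dhodh was no longer called and Tyms was, so the same totals do not hold the same genes.

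The 3 serine synthesis enzymes did not move alike: Phgdh and Psat1 rose in both T-ALL groups, and Psph was not called in either. Phgdh, the first and committed enzyme (chr3:98313171-98339969; here and below, gene positions are RefSeq on GRCm38.p6), was 5.19 to 6.56 in thymus (median 6.42). It was 6.86 to 8.0 in WT T-ALL (median 7.15), and 7.58, 6.64 and 7.32 in Notch3 KO T-ALL. Every leukemia lay above every thymus sample. The difference was 1.12 ± 0.20 (SE, adjusted p = 6.9e-05) for WT T-ALL and 1.05 ± 0.29 (adjusted p = 0.0065) for Notch3 KO T-ALL, where the call was lost without Notch3 KO T-ALL 1 and when the libraries were rescaled without mitochondrial and hemoglobin genes. Psat1, the aminotransferase of the pathway, was 4.13 to 5.37 in thymus (median 5.25), 5.58 to 7.46 in WT T-ALL (median 6.41), and 6.64, 6.17 and 6.51 in Notch3 KO T-ALL. Again the groups did not overlap, and the differences were 1.49 ± 0.20 (adjusted p = 3.39e-06) and 1.48 ± 0.30 (adjusted p = 0.000504). Psph, the phosphatase that releases serine, was 3.88 to 4.42 in thymus, 3.41 to 5.29 in WT T-ALL (median 4.31), and 5.00, 4.44 and 4.37 in Notch3 KO T-ALL. Of the 14 WT T-ALL samples, 5 were above and 2 below the whole thymus range, and the differences of 0.16 (95% interval −0.24 to 0.55) and 0.45 (−0.12 to 1.03) did not pass the test.

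**Figure D2:**
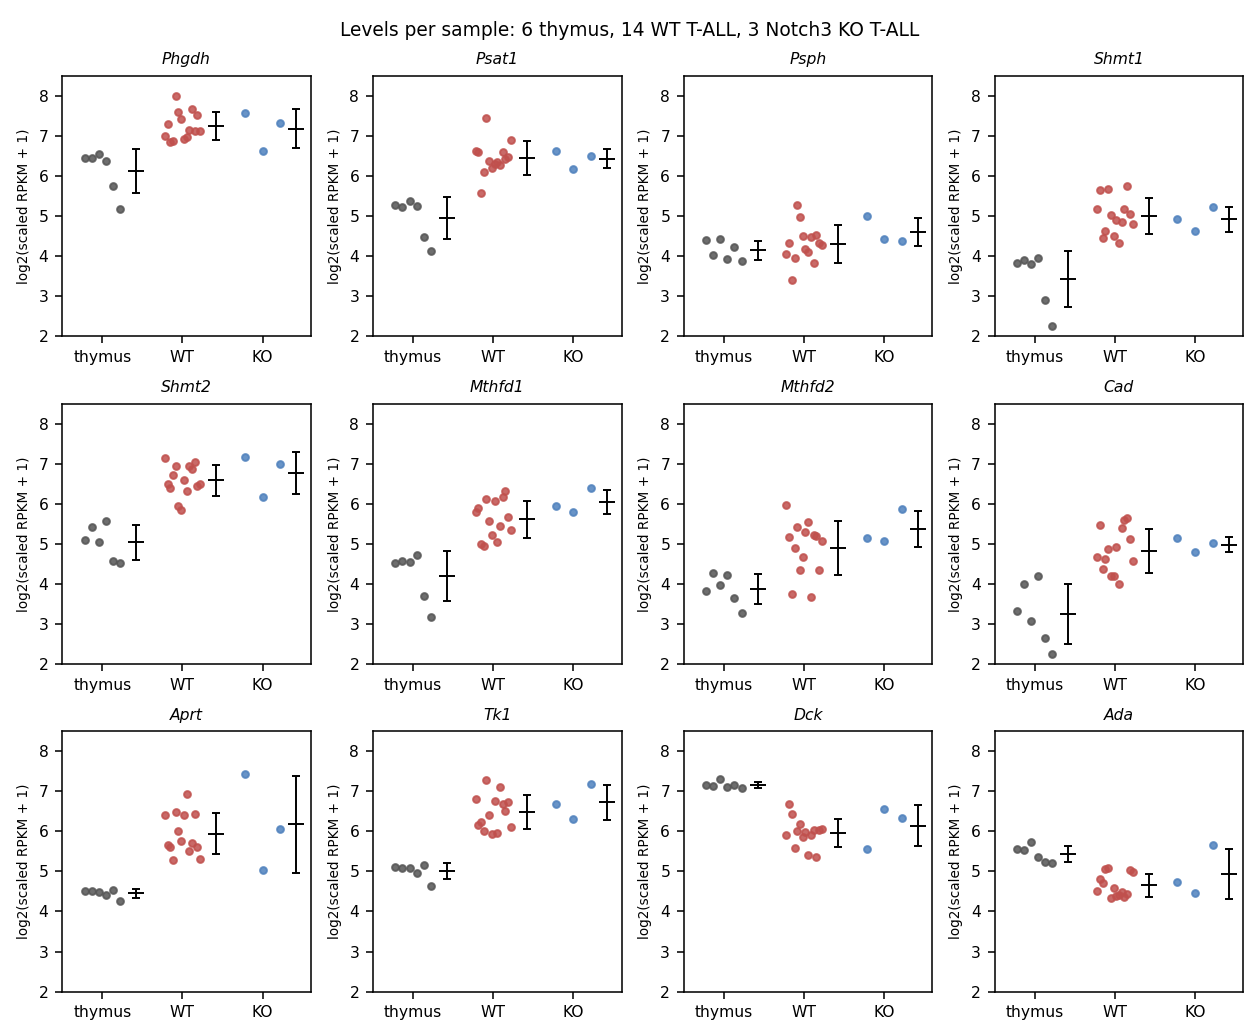
Each dot is 1 sample and the y axis is log2(scaled RPKM + 1), cut to 2 to 8.5 in every panel; the bar beside the dots is the group mean and its SD (thymus n = 6, WT T-ALL n = 14, Notch3 KO T-ALL n = 3). Phgdh, Psat1, Shmt1, Shmt2, Mthfd1, Aprt and Tk1 have all T-ALL samples above all thymus samples, Psph overlaps, and Dck lies below thymus in every T-ALL sample.

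All 5 folate one-carbon members were higher in both T-ALL groups. Shmt1, the cytosolic serine hydroxymethyltransferase, was 2.26 to 3.96 in thymus (median 3.82), 4.33 to 5.76 in WT T-ALL (median 4.97), and 4.92, 4.62 and 5.23 in Notch3 KO T-ALL. The lower 2 thymus values, 2.91 and 2.26, came from thymus 5 and 6, and no leukemia reached down to the thymus range. Its differences were 1.56 ± 0.24 (adjusted p = 1.26e-05) and 1.48 ± 0.35 (adjusted p = 0.00186). Shmt2, its mitochondrial counterpart, was 4.51 to 5.58 in thymus (median 5.07), 5.84 to 7.14 in WT T-ALL (median 6.55), and 7.16, 6.17 and 6.99 in Notch3 KO T-ALL. The groups were separate here too, with differences of 1.55 ± 0.20 (adjusted p = 1.22e-06) and 1.73 ± 0.29 (adjusted p = 7.23e-05). Mthfd1, the trifunctional cytosolic enzyme, had the largest rise of any member in Notch3 KO T-ALL. It went from 3.17 to 4.72 in thymus (median 4.53) to 5.95, 5.80 and 6.39 in Notch3 KO T-ALL (1.84 ± 0.33, adjusted p = 0.000183) and 4.95 to 6.32 in WT T-ALL (median 5.62; 1.41 ± 0.23, adjusted p = 2.62e-05). Mthfd2, the mitochondrial dehydrogenase and cyclohydrolase that is known for its low level in most adult tissues, varied more. It was 3.28 to 4.27 in thymus (median 3.89), 3.67 to 5.97 in WT T-ALL (median 5.13), and 5.14, 5.08 and 5.88 in Notch3 KO T-ALL. Of the 14 WT T-ALL samples, 12 lay above all thymus samples, and WT T-ALL 5 and 111 lay within the thymus range. The differences were 1.03 ± 0.27 (adjusted p = 0.00285) and 1.49 ± 0.39 (adjusted p = 0.00433). Mthfd1l, the mitochondrial formate-producing synthetase, was higher by 1.25 ± 0.17 and 1.37 ± 0.25, and all T-ALL samples were above all thymus samples.

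Each of the 6 de novo purine members was higher in both groups, by 0.89 to 1.28 (WT T-ALL) and 0.79 to 1.22 (Notch3 KO T-ALL). Ppat, the amidotransferase that commits PRPP to the pathway, had a mean of 4.40 ± 0.56 (SD, n = 6) in thymus, 5.30 ± 0.40 (n = 14) in WT T-ALL and 5.20 ± 0.22 (n = 3) in Notch3 KO T-ALL. Its difference was the smallest of the 6 in each comparison (0.89, adjusted p = 0.000861, and 0.79, adjusted p = 0.0359). The trifunctional enzyme Gart was higher by 0.97 and 1.02, and Pfas, which acts between steps of Gart, by 1.00 and 1.16. Paics, which acts after these, rose by 1.14 and 1.11, and Adsl, which acts in both the IMP and the AMP branch, by 1.08 and 1.17. Atic, which closes the purine ring to IMP, had the smallest spread of all members among the 14 WT T-ALL samples (6.49 ± 0.25, SD) and the smallest adjusted p of all members in that comparison (1.28 ± 0.15, adjusted p = 5.48e-07). In Notch3 KO T-ALL, the calls for Ppat (adjusted p = 0.0359) and for the pyrimidine gene Umps (adjusted p = 0.0301) were lost when thymus 5 or thymus 6 or Notch3 KO T-ALL 1 or 3 was left out. The call for Ppat was also lost with no filter on low values, that for Gart without Notch3 KO T-ALL 1, and that for Paics without Notch3 KO T-ALL 3. Those for Ppat, Gart, Pfas, Adsl and Umps were lost when the libraries were rescaled without mitochondrial and hemoglobin genes, and of the purine calls in that group Atic and Paics were left on that scale.

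Short stretches of 5′ sequence are shown for these enzymes because many of them rose together and 2 of them start next to each other. Ppat, on the minus strand, and Paics, on the plus strand of chromosome 5, have RefSeq start sites at positions 76951578 and 76951302, so that their first 276 bases overlap on opposite strands. Both were higher in both T-ALL groups, and the counting was not stated to use strand, so reads from the overlap may have been assigned to either. RefSeq windows from 250 bases before to 50 bases after each start (GRCm38.p6) were found for 32 of the 34 members, as 38 windows, and were searched on both strands for 3 sets of letters. CACGTG, the E-box that Myc-family factors are known to recognize, was in 6 of the 38 member windows (15.8%), belonging to Atic, Impdh2, Nme1, Paics and Tyms, and in 7.15% of all 32851 windows. The stretches around it are written 5′ to 3′ on the strand of the gene, with the E-box in capitals.
Atic, plus strand, 7 bases before the start, chr1:71557137-71557155: ggacctcggggtCACGTGg
Tyms, minus strand, 61 bases before, chr5:30073669-30073698: aaccacttctgtCACGTGggggcggggtct
Paics, plus strand, 203 bases before, chr5:76951087-76951116: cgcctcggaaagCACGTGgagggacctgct
Impdh2, plus strand, 110 bases before, chr9:108560314-108560343: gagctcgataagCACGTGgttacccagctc
Nme1, minus strand, 18 bases before, chr11:93968273-93968302: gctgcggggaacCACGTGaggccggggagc
Nme1 at its other start, minus strand, 29 bases before, chr11:93968037-93968066: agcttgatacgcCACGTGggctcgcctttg
In the GENCODE annotation of the same build, the Paics stretch lies in the first exon of Ppat, in its 5′ UTR, and those of Atic, Impdh2 and the first of Nme1 reach into the 5′ UTR of a longer transcript of the same gene. Nme1 has the E-box at both of its RefSeq starts. The distance for Tyms is counted from a start that is not the first of the gene, whose RefSeq span ends at 30073645. GCGGGAA, a core of the E2F sites known from genes of DNA synthesis, was in 4 of the 38 windows (10.5%), for Mthfd1, Ppat, Prps1 and Prps2, and in 4.60% of all windows. Ppat held 3 copies. The copy nearest to its start (given as its reverse complement, in capitals) and that of Mthfd1 are shown. The Ppat stretch lies in an exon of Paics, in its 5′ UTR. The Mthfd1 stretch lies inside the RefSeq span of Mthfd1, before a start that is not the first of the gene, and overlaps an exon of Gm47525 on the minus strand.
Ppat, minus strand, 50 bases before, chr5:76951611-76951639: tgtccccaggcTTCCCGCcgcgcaggcgc
Mthfd1, plus strand, 53 bases before, chr12:76255168-76255196: ctaaaagcgagGCGGGAAgctcccggctc
TGATGCA, the beginning of the C/EBP-ATF response element known from amino acid response genes, was in 0 of the 38 windows and in 3.15% of all windows. These are matches of letters, and no binding was measured. Of the 5 genes with the E-box, 4 were higher in both T-ALL groups, as were most of the 34 members (27 and 23), so nothing about the E-box can be read from that count. Tyms was not called (0.80, adjusted p = 0.0534, and 0.68, adjusted p = 0.286).

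At the branch from IMP to GMP and AMP, the 2 IMP dehydrogenases moved in opposite directions. Impdh2 (chr9:108560436-108565577), the isozyme known from proliferating cells, was 5.05 to 6.48 in thymus (median 6.42), 6.66 to 7.77 in WT T-ALL (median 7.39), and 7.70, 6.73 and 8.04 in Notch3 KO T-ALL. Impdh1 (chr6:29200436-29216364) was 5.96 to 6.65 in thymus (median 6.27), 4.17 to 5.59 in WT T-ALL (median 5.16), and 5.43, 4.86 and 5.33 in Notch3 KO T-ALL. All leukemias were above all thymus samples for Impdh2 and below all of them for Impdh1. Impdh2 was higher by 1.26 ± 0.22 (adjusted p = 4.83e-05) and 1.43 ± 0.31 (adjusted p = 0.00108), and Impdh1 was lower, with differences of −1.23 ± 0.18 (adjusted p = 8.5e-06) and −1.06 ± 0.26 (adjusted p = 0.003). With the erythroid score as a covariate no call of either gene held, and the Impdh1 difference in Notch3 KO T-ALL turned to 0.47. With the proliferation score as a covariate both Impdh2 calls were lost, as was the Impdh1 call in Notch3 KO T-ALL. Of the other 2 genes of the branch, Gmps, the GMP synthetase, was higher in WT T-ALL by 0.88 (adjusted p = 0.00246) and Adss, the adenylosuccinate synthase, by 0.62 (adjusted p = 0.00203). In Notch3 KO T-ALL their differences were 0.52 (95% interval −0.15 to 1.19) and 0.21 (−0.26 to 0.67), which were not called except after correction for GC content and length. The call for Adss in WT T-ALL was lost when the libraries were rescaled without mitochondrial and hemoglobin genes. Neither gene differed between the T-ALL groups by the test given below.

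**Figure D3:**
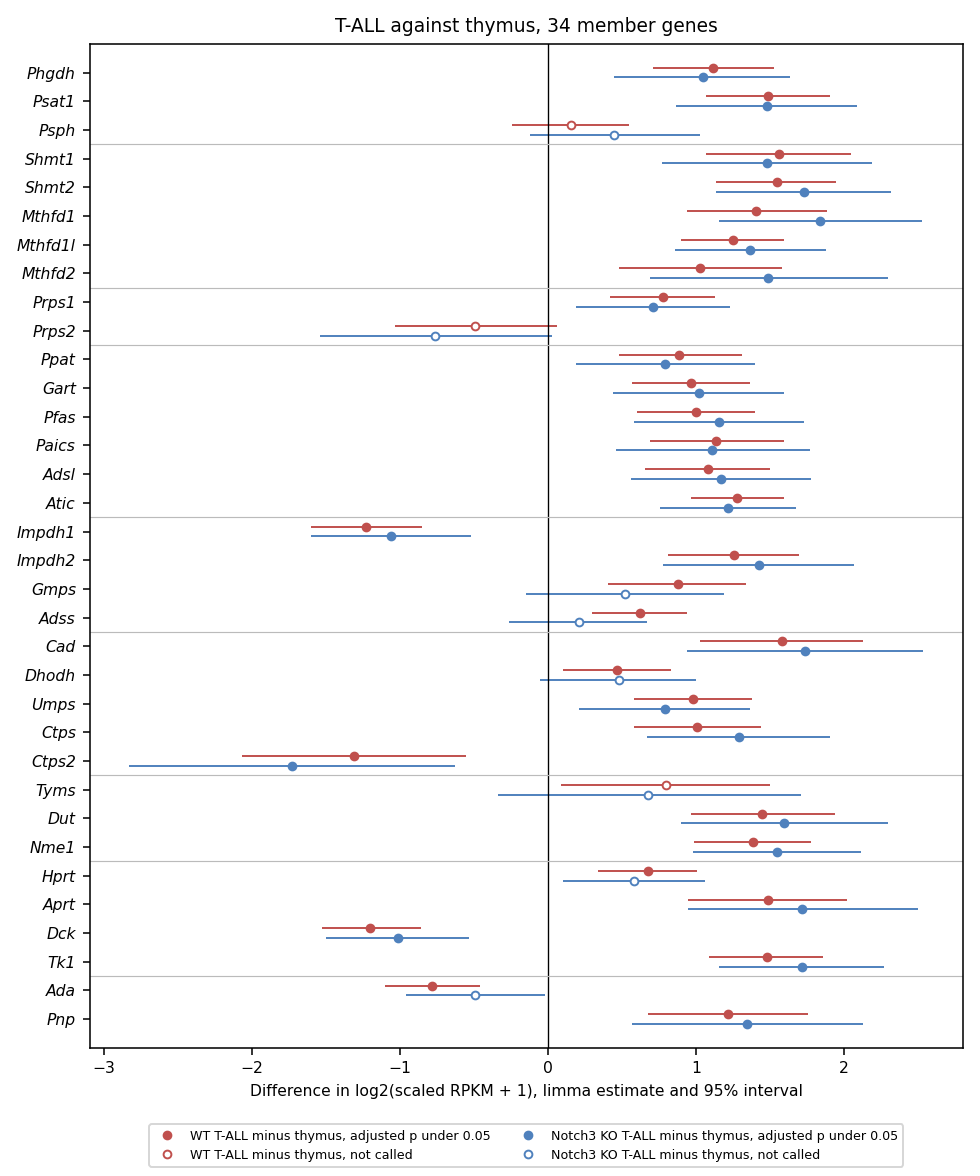
Points are limma differences in log2(scaled RPKM + 1) from the 6 thymus samples for WT T-ALL (red, n = 14) and Notch3 KO T-ALL (blue, n = 3), lines are 95% intervals, and filled points have an adjusted p below 0.05. All intervals of the folate one-carbon and de novo purine genes lie to the right of 0, those of Impdh1, Ctps2, Dck and Ada lie to the left of 0 in both comparisons, and those of Prps2 and Psph cross 0.

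Of the 5 pyrimidine members, 4 were higher and 1 was lower in WT T-ALL, and 3 were higher and 1 lower in Notch3 KO T-ALL. Cad, the trifunctional enzyme of the first steps, had the largest rise of any member in WT T-ALL. It was 2.24 to 4.19 in thymus (median 3.20), 4.00 to 5.64 in WT T-ALL (median 4.77), and 5.15, 4.79 and 5.01 in Notch3 KO T-ALL. In WT T-ALL 13 of 14 samples lay above all thymus samples, and the differences were 1.58 ± 0.27 (adjusted p = 4.28e-05) and 1.74 ± 0.39 (adjusted p = 0.00129). Umps, which makes UMP, was higher by 0.98 and 0.79 (adjusted p = 0.000228 and 0.0301). Dhodh, the mitochondrial dehydrogenase between Cad and Umps, was the lowest member in thymus (5.65 scaled RPKM) and was higher by 0.47 in WT T-ALL (adjusted p = 0.0299). This call was lost when thymus 3, 5 or 6 was left out, without the 5 libraries named above, with quantile normalization, after correction for GC content and length, when thymus 1 with 3 and 2 with 4 were averaged, and when the libraries were rescaled without mitochondrial and hemoglobin genes. Its difference in Notch3 KO T-ALL was 0.48 (adjusted p = 0.145), where Notch3 KO T-ALL 2 (2.54) lay below all thymus samples and without which Dhodh was called (0.81, adjusted p = 0.0208). The last step, from UTP to CTP, again had paralogs that moved apart. Ctps (chr4:120539868-120570276) was 3.04 to 4.39 in thymus (median 4.05), 4.01 to 5.55 in WT T-ALL (median 5.05), and 5.12, 5.23 and 5.29 in Notch3 KO T-ALL (1.01 ± 0.21, adjusted p = 0.00035, and 1.29 ± 0.30, adjusted p = 0.00191). Ctps2 (chrX:162901268-163034541) was 3.25 to 4.92 in thymus (median 4.51), 1.78 to 4.77 in WT T-ALL (median 2.77), and 2.37, 2.45 and 2.78 in Notch3 KO T-ALL. It had the largest fall of any member and the largest spread among the WT T-ALL samples (SD 0.89), of which 9 of 14 lay below all thymus samples. Its differences were −1.31 ± 0.37 (adjusted p = 0.00508) and −1.73 ± 0.53 (adjusted p = 0.0139), and the second was not called without Notch3 KO T-ALL 1 or when thymus 1 with 3 and 2 with 4, which resembled each other most, were averaged.

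PRPP, the ribose donor of the purine, pyrimidine and salvage routes, is made by Prps1 and Prps2, both on chromosome X. Prps1 was 4.13 to 4.86 in thymus (median 4.73), 4.83 to 6.21 in WT T-ALL (median 5.44), and 5.19, 5.06 and 5.80 in Notch3 KO T-ALL. It was higher by 0.78 ± 0.17 (adjusted p = 0.000731) and 0.71 ± 0.25 (adjusted p = 0.0286). The second call was lost when thymus 6 or Notch3 KO T-ALL 3 was left out and when the libraries were rescaled without mitochondrial and hemoglobin genes. Both Prps1 calls were lost with the erythroid score and with the proliferation score as a covariate. Prps2 was 6.30 to 7.05 in thymus (median 6.58), 4.89 to 7.13 in WT T-ALL (median 6.14), and 5.43, 6.23 and 5.91 in Notch3 KO T-ALL. All 3 Notch3 KO T-ALL samples and 10 of the 14 WT T-ALL samples lay below all thymus samples, while 2 WT T-ALL samples lay above them. Its differences of −0.49 (adjusted p = 0.124) and −0.76 (adjusted p = 0.122) did not pass the test. Both were called with quantile normalization, when the libraries were rescaled without mitochondrial and hemoglobin genes and with the proliferation score as a covariate, and the second also with Notch3 KO T-ALL and thymus fitted alone.

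The balance within 4 pairs of isozymes was tested as the difference between the log2 values of the 2 genes in each sample (two-sided exact permutation test over samples, adjusted over 4 pairs and 3 comparisons). Impdh2 minus Impdh1 was −1.60 to 0.50 for thymus, 1.25 to 3.21 for WT T-ALL and 1.87 to 2.72 for Notch3 KO T-ALL, and its mean moved by 2.48 (exact p = 2.58e-05, adjusted p = 0.000155) and by 2.49 (exact p = 0.0119, adjusted p = 0.0238). Those were the smallest p-values that the 38760 and 84 arrangements can give. Prps1 minus Prps2 was −2.19 to −1.78 for thymus, −1.47 to 0.30 for WT T-ALL and −1.17 to −0.12 for Notch3 KO T-ALL. Its mean moved by 1.26 (exact adjusted p = 0.000155) and 1.47 (exact adjusted p = 0.0238), and Prps2 remained above Prps1 in 12 of 14 WT T-ALL samples. Ctps minus Ctps2 was −0.96 to 0.31 for thymus, 0.19 to 3.77 for WT T-ALL and 2.51 to 2.79 for Notch3 KO T-ALL, and its mean moved by 2.32 (exact adjusted p = 0.000413) and 3.01 (exact adjusted p = 0.0238). Shmt2 minus Shmt1 did not move in this way. It was 1.24 to 2.25 for thymus, 0.85 to 2.10 for WT T-ALL and 1.55 to 2.24 for Notch3 KO T-ALL, with changes in the mean of −0.01 (exact adjusted p = 0.99) and 0.25 (exact adjusted p = 0.476). Between the T-ALL groups no pair differed (exact adjusted p of 0.476 to 0.99). The balance uses genes whose single differences are given above, and is not separate evidence for them.

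**Figure D4:**
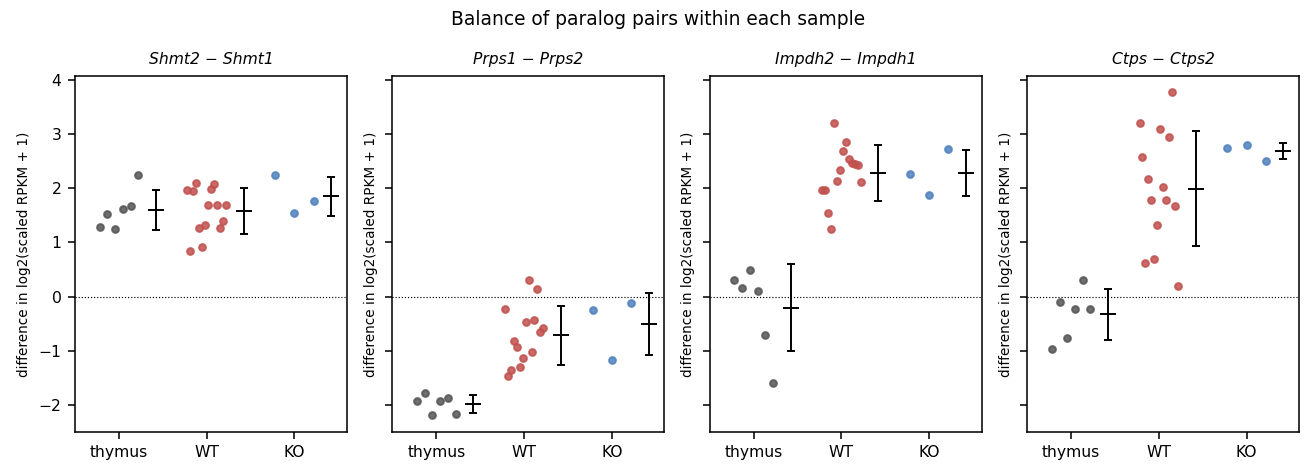
Each dot is the difference between 2 isozymes in 1 sample, in log2(scaled RPKM + 1), and the bar is the group mean and SD (thymus n = 6, WT T-ALL n = 14, Notch3 KO T-ALL n = 3); the dotted line marks equal levels. The Impdh pair and, but for 1 WT T-ALL sample, the Ctps pair lie above all thymus samples in T-ALL, the Prps pair is also higher, and the Shmt pair overlaps.

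Thymidylate and deoxynucleotide supply showed a rise in Dut and Nme1. Dut, which keeps uracil out of DNA by cleaving dUTP, was the most abundant member in every group, with 163 ± 30.2 scaled RPKM (SD) in thymus, 474 ± 182 in WT T-ALL and 503 ± 141 in Notch3 KO T-ALL. It was higher by 1.45 ± 0.23 (adjusted p = 2.43e-05) and 1.60 ± 0.34 (adjusted p = 0.000814) on the log2 scale. Nme1, a nucleoside diphosphate kinase, was higher by 1.39 ± 0.19 and 1.55 ± 0.28 and did not overlap with thymus; GENCODE lists a transcript that joins it to Nme2, so the reads of the 2 genes may be shared. Tyms, the thymidylate synthase, was 3.70 to 5.88 among thymus samples and 4.52 to 7.06 among WT T-ALL samples, and was not called. The highest thymus values came from thymus 1 and 3 (5.88 and 5.30) and the highest leukemia value from WT T-ALL 14. Without these 3 and WT T-ALL 36 and 48, Tyms was called higher in both comparisons. In WT T-ALL it was also called within those 5 libraries alone, with quantile normalization, with 0.1 in place of 1 added before the log, with the filter raised to a scaled RPKM of 5, and when any 1 of thymus 1, thymus 3 and WT T-ALL 7, 110, 126 and 202 was left out. After correction for GC content and length Tyms was not called in either comparison.

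Salvage genes split. Tk1, the S-phase thymidine kinase, was 4.63 to 5.17 in thymus (median 5.09), 5.94 to 7.29 in WT T-ALL (median 6.46), and 6.68, 6.30 and 7.19 in Notch3 KO T-ALL (1.48 ± 0.19, adjusted p = 1.06e-06, and 1.72 ± 0.27, adjusted p = 4.06e-05). Aprt, which salvages adenine, was 4.25 to 4.54 in thymus (median 4.50), 5.28 to 6.94 in WT T-ALL (median 5.73), and 7.44, 5.03 and 6.05 in Notch3 KO T-ALL. All leukemias were above all thymus samples for both genes, and the Aprt differences were 1.49 ± 0.26 (adjusted p = 6.11e-05) and 1.72 ± 0.38 (adjusted p = 0.00108). Notch3 KO T-ALL 1 held the highest Aprt value, and without it the second difference was 1.09 (adjusted p = 0.0268). Dck, the kinase that activates deoxycytidine and nucleoside drugs such as cytarabine, fell. It was 7.09 to 7.30 in thymus (median 7.15), 5.35 to 6.68 in WT T-ALL (median 6.00), and 5.56, 6.55 and 6.33 in Notch3 KO T-ALL. No leukemia reached the thymus range, and the differences were −1.20 ± 0.16 (adjusted p = 2.99e-06) and −1.01 ± 0.24 (adjusted p = 0.00186). In thymus Dck was the most abundant member after Dut, at 142 scaled RPKM, and in WT T-ALL it was at 63.1. Hprt, which salvages hypoxanthine and guanine, was higher by 0.68 (adjusted p = 0.00137) in WT T-ALL, and its difference of 0.58 in Notch3 KO T-ALL did not pass (adjusted p = 0.0541). The latter was called without any 1 of thymus 1, thymus 3, WT T-ALL 5, 14 and 126 and Notch3 KO T-ALL 2, without the 5 libraries named above, with the 2 groups fitted alone, and after correction for GC content and length.

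The 2 enzymes of purine nucleoside breakdown moved in opposite directions in WT T-ALL. Ada, adenosine deaminase, was 5.20 to 5.73 in thymus (median 5.45), 4.33 to 5.08 in WT T-ALL (median 4.55), and 4.73, 4.46 and 5.65 in Notch3 KO T-ALL. All 14 WT T-ALL samples lay below all thymus samples (−0.78 ± 0.16, adjusted p = 0.000263), while Notch3 KO T-ALL 3 lay within the thymus range and the difference of that group was −0.49 (95% interval −0.96 to −0.02, adjusted p = 0.0916). That difference for Ada was −0.84 without Notch3 KO T-ALL 3 (adjusted p = 0.00902) and −0.24 without Notch3 KO T-ALL 2 (adjusted p = 0.456). It was also called with quantile normalization, when the libraries were rescaled without mitochondrial and hemoglobin genes and after correction for GC content and length. Pnp, the purine nucleoside phosphorylase, was 4.08 to 5.17 in thymus (median 4.86), 4.38 to 6.90 in WT T-ALL (median 6.19), and 6.65, 5.53 and 6.23 in Notch3 KO T-ALL. It was higher by 1.22 ± 0.26 (adjusted p = 0.000497) and 1.35 ± 0.38 (adjusted p = 0.00731), with WT T-ALL 7 the only leukemia inside the thymus range. The second call was lost without Notch3 KO T-ALL 1. With the erythroid score as a covariate both Pnp calls were lost and the direction turned (−0.09 and −0.61), and among the WT T-ALL samples Pnp had the steepest slope of the members on that score (0.45 per SD, not called).

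Counted by ranges rather than by model, 11 members lay entirely above and 3 entirely below thymus in WT T-ALL, where 8.42% and 6.64% of all genes tested did so. In Notch3 KO T-ALL, with 3 samples, 22 lay above and 4 below, where 23.9% and 18.4% of all genes did.

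Fewer members were called when the erythroid or the proliferation score, with which the groups differ, was added as a covariate. With the erythroid score as a covariate, 4 members were called in WT T-ALL (Shmt2, Pfas and Atic higher, Dck lower; 9.33% of all genes called) and 0 in Notch3 KO T-ALL (1.69% of all genes). The median difference of the members in these fits was 0.63 in both, and because the score does not overlap between thymus and T-ALL, the 2 cannot be told apart in these fits. With the proliferation score as a covariate, 13 members were called in WT T-ALL, 8 higher and 5 lower (18.5% of all genes called), and 4 in Notch3 KO T-ALL, 2 higher and 2 lower (11.5%). The same limit holds for this score, which was at most 5.78 in thymus and at least 5.84 in WT T-ALL and 6.29 in Notch3 KO T-ALL. Among the 14 WT T-ALL samples alone, no member was called on the erythroid score (0.715% of 11476 genes were, and 2 members had an unadjusted p below 0.05), on the proliferation score (0.00% of genes, 2 members unadjusted) or on the macrophage score (4.48% of genes, 2 members unadjusted). On the neutrophil score, 6.60% of genes and 2 members were called, and 5 members had an unadjusted p below 0.05. The 2 called members were Aprt, which rose by 0.39 per SD of the score (adjusted p = 0.0191), and Impdh1, which fell by 0.31 per SD (adjusted p = 0.0484). The part of these cell types in the differences from thymus was not tested further.

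Genes that supply the same pathways were counted from lists that hold none of the 34 members. Of 69 such genes tested, 29 were higher and 9 lower in WT T-ALL, and 23 were higher and 5 lower in Notch3 KO T-ALL, with medians of 0.36 and 0.38. Of all genes, 29.3% were higher and 22.3% lower in the first comparison, and 21.2% higher and 16.3% lower in the second. In folate uptake and reduction, 4 of 10 were higher and 4 lower in WT T-ALL, and 3 and 1 in Notch3 KO T-ALL. Ggh, which removes the glutamate tail of folates, was lower in both, with differences of −1.74 (adjusted p = 0.000519) and −1.44 (adjusted p = 0.0382). Mthfs, which returns 5-formyl folate to the active pool, had a difference of −1.12 (adjusted p = 0.0114) in WT T-ALL and of −0.13 (adjusted p = 0.866) in Notch3 KO T-ALL. Of 9 genes of ribonucleotide reduction and deoxynucleotides, 5 were higher and 1 lower in each; Rrm1, the large subunit of ribonucleotide reductase, was higher by 1.14 and 1.26, and the dCTP-cleaving Dctpp1 by 1.32 and 1.59. Samhd1, which degrades deoxynucleotides, was lower in WT T-ALL (−1.09, adjusted p = 0.0473). Of the 14 WT T-ALL samples 11 lay below all thymus samples for Samhd1, and WT T-ALL 110 (6.41) lay above them. In Notch3 KO T-ALL Samhd1 was not called (−0.67, adjusted p = 0.433), and the lower gene was Rrm2b (−0.59, adjusted p = 0.0426). In serine and glycine transport, 3 of 4 and 2 of 4 were higher. Slc6a9, a glycine transporter, was at most 0.10 among the thymus samples, 0.88 to 3.93 in WT T-ALL, and 3.32, 5.29 and 4.27 in Notch3 KO T-ALL, with differences of 2.09 (adjusted p = 4.62e-05) and 4.24 (adjusted p = 2.14e-06). All its thymus values lay below the filter level, so Slc6a9 passed the filter through the T-ALL samples alone. The sizes of these differences depend on the offset, and their p-values are not separate support for the rise. Notch3 KO T-ALL 2, which had the highest erythroid score (8.87), also had the highest Slc6a9 level, and a link between them was not tested. Sfxn1, the mitochondrial serine carrier, was higher by 1.15 and 0.91.

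Among 15 tested genes of purine interconversion and breakdown, 7 were higher and 1 lower in WT T-ALL, and 5 higher and 1 lower in Notch3 KO T-ALL. Gda, guanine deaminase, was 0.06 to 0.73 among the thymus samples, 1.11 to 5.78 in WT T-ALL, and 3.35, 4.81 and 4.93 in Notch3 KO T-ALL (2.55, adjusted p = 0.000263, and 3.91, adjusted p = 0.000294). Gda was below the filter level in every thymus sample and passed the filter through the T-ALL samples alone. The sizes of its differences depend on the offset, and their p-values are not separate support for the rise. Of the AMP deaminases, Ampd3, the form known from erythrocytes, was higher by 1.93 and 2.52, and Ampd1, known from muscle, was lower, with differences of −1.14 and −1.27. Among 15 nucleoside and nucleotide kinases, 6 were higher and 1 lower in WT T-ALL and 5 higher in Notch3 KO T-ALL, with Adk, adenosine kinase, higher by 1.52 and 1.24. In nucleoside transport, 1 of 4 was higher and 2 were lower in each, and Slc28a2, a concentrative purine nucleoside transporter, was lower with differences of −1.04 and −1.68, as was the equilibrative Slc29a3 (−0.71 and −0.72). Glycine cleavage had 2 of 3 and 1 of 3 higher, the methionine cycle 1 of 5 in each, and the lists of pyrimidine breakdown (2 tested) and PRPP synthetase associated genes (2 tested) had 0 called.

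Between the T-ALL groups, 72 of 11677 genes were called (0.617%; 0.591% higher and 0.0257% lower), and 0 of the 34 members. None of the members had an unadjusted p below 0.05 either, where 994 genes of all tested did. The median difference of the members, Notch3 KO T-ALL minus WT T-ALL, was 0.10, against 0.00 for all genes, and single differences ran from −0.42 to 0.47. The smallest p was that of Adss (−0.42, 95% interval −0.87 to 0.04, unadjusted p = 0.0695, adjusted p = 0.656). The largest positive difference was that of Mthfd2 (0.47, −0.32 to 1.25, adjusted p = 0.908), followed by Mthfd1 (0.43, −0.14 to 1.00, adjusted p = 0.798). Leaving out 1 library moved Adss to between −0.59 and −0.21, Mthfd2 to between 0.21 and 0.61 and Mthfd1 to between 0.26 and 0.55. The difference of Aprt then ran from −0.40 to 0.81, so this order is not fixed. Over the 34 members the intervals reached from −1.44, for Ctps2, to 1.25, for Mthfd2, so that with 3 Notch3 KO T-ALL samples some intervals still held a change of 1. No member had its 3 Notch3 KO T-ALL values wholly outside the WT T-ALL range (0.325% of all genes were wholly above and 0.111% wholly below). Of 67 tested genes on the supply lists 0 were called and 7 had an unadjusted p below 0.05, with Slc6a9 (2.15, adjusted p = 0.0745) nearest to the threshold.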

How the data were processed

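Libraries were made from total RNA with a stranded mRNA kit, and the authors aligned reads to the mouse transcriptome (mm10) with OSA in ArrayStudio. The deposited values are log2(scaled RPKM + 1) per gene, with a 75th percentile of 3.458 to 3.459 in each of the 23 libraries. They were used as deposited, with groups taken from the labels. Read counts were not used here and the depth of each library could not be read from the table, so the number of samples limits precision.

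Testing was limited to genes whose scaled RPKM reached 1 in 3 or more fitted samples. It was done with limma 3.58.1 (R 4.3.3; intensity trend and robust variance), with Benjamini-Hochberg adjustment over all genes tested. The 3 groups shared 1 fit for comparisons with thymus, and the comparison between the T-ALL groups was fitted on the T-ALL samples alone. On simulated data of this layout, 92% of genes changed by 1 (log2) were called in the layout of WT T-ALL and thymus, 54% in that of Notch3 KO T-ALL and thymus and 66% in that of the T-ALL groups. The simulation changed a small part of the genes, all of higher level, with independent normal noise of equal spread in all groups. These shares need not hold for the real genes. Isozyme pairs were compared by exact permutation (Python, numpy). Scores were means of log2 values of marker genes. Values by sample (for groups over 5 samples, mostly the lowest, median and highest) were given for the 5 largest rises and 3 largest falls in each comparison with thymus, the serine synthesis genes, Shmt1, Shmt2, Mthfd2, the isozyme pairs, Ada and Pnp, and the 4 largest rises and falls were named for the supply lists. Only called genes were ranked for these rises and falls. Rrm1 and Sfxn1 were named after their values were seen.

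The members and lists were chosen with earlier results of these data known. The labels do not say which thymus samples came from separate animals. Thymus 1 and 3, and 2 and 4, were closer to each other than other pairs, and p-values measure only the spread between these samples. Alternatives were another offset, filter, normalization and variance model, covariates, a replicate block and leaving out libraries. Corrections for GC content and length, and the exclusion of particular libraries, were added after the data were seen. Promoter windows are from RefSeq and no protein sequence was used.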

Additional observations from a re-analysis of the deposited data

Results flagged for a closer look

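Of the 34 members and 4 isozyme pairs looked at among the 6 thymus samples, 1 was flagged because a sample lay far from the others: Dck was 7.30 in thymus 3, while the other thymus samples lay at 7.09 to 7.17. Chance flags about 1 in 20 such groups. The T-ALL groups have too many or too few samples for this rule.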

How the results depend on the processing

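The number of members called stayed within 1.5 times of 31 in WT T-ALL and of 26 in Notch3 KO T-ALL under all alternatives except the covariates. With the erythroid score it was 4 and 0, and with the proliferation score 13 and 4 (18.5% and 11.5% of all genes called). With the erythroid score Pnp changed sign against thymus (−0.09 in WT T-ALL, −0.61 in Notch3 KO T-ALL), as did Impdh1 in Notch3 KO T-ALL (0.47), and none of these was called. The cause was not tested. Leaving out 1 library gave 30 to 32 members in WT T-ALL, 20 to 28 in Notch3 KO T-ALL and 0 between the T-ALL groups, where the count was 0 under every alternative run. The lowest count came without Notch3 KO T-ALL 1, when Phgdh, Ppat, Gart, Umps, Ctps2 and Pnp were no longer called.

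For the pairs against thymus in Notch3 KO T-ALL, leaving out 1 library gave differences of 1.27 to 1.80 for Prps1 minus Prps2, 2.21 to 2.70 for Impdh2 minus Impdh1 and 2.89 to 3.14 for Ctps minus Ctps2 (exact adjusted p of 0.0357 to 0.0714). The higher p came with each Notch3 KO T-ALL sample left out, where fewer splits exist. Without thymus 1 and 3 and WT T-ALL 14, 36 and 48 the differences were 1.43, 2.79 and 2.74, and without thymus 5 and 6 they were 1.45, 2.01 and 3.20 (exact adjusted p = 0.0571 for each, with 3 against 4 samples). In WT T-ALL these 3 pairs stayed past the threshold under all alternatives run.

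Replicate numbers shared between T-ALL and thymus did not pair the samples (correlations of −0.235 to 0.151). With the replicate block, 27 members were called in WT T-ALL (2926 of all genes, against 6150 without the block) and 23 in Notch3 KO T-ALL (3643 against 4475). The block lost Mthfd2, Adss, Dhodh and Hprt in the first and Prps1, Ppat and Umps in the second. No paired analysis was possible between the T-ALL groups because they share fewer than 2 numbers. Within thymus 1 and 3 and WT T-ALL 14, 36 and 48 alone, 22 members were called (24.9% of all genes). The table does not give the depth of each library, and 3 Notch3 KO T-ALL samples limit every comparison with that group.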
